A study of Mus musculus with 12 samples.

Results

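The genes described here handle vitamin A in the duodenal epithelium, and they were taken from a named list of 8 carotenoid and retinoid genes: Rbp2, Bco1, Lrat, Isx, Scarb1, Rdh7, Retsat and Aldh1a1. A gene was kept when its symbol stood in both of the authors' deposited tables of RNA polymerase II (Pol II) occupancy. Of the 8 genes, 6 were kept, out of 6429 genes in each table. Bco1 and Scarb1 were in neither table, under these or older symbols, so they have counting windows but no Pol II value here. Occupancy was measured by chromatin immunoprecipitation and sequencing (ChIP-seq) with an antibody to Pol II in epithelium of the adult mouse duodenum. The labels list 3 Pol II libraries for wild-type (WT) villus, 3 for WT crypt and 3 for villus labelled Hnf4 alpha and gamma double knockout (DKO), with 1 input library beside each group. DKO mice were given tamoxifen at 50 mg per kg per day on 2 days and were killed 1 day after the last dose, whereas WT mice were given the oil vehicle. Mutant tissue was held in EDTA for 25 minutes and WT tissue for 35 minutes, so genotype, tamoxifen and EDTA time cannot be told apart. The driver of the recombinase and the deleted part of each gene are not given in the sources used here.

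Dietary vitamin A reaches the enterocyte, the absorptive cell of the villus, as retinol or as carotenoid. Carotenoids enter through the scavenger receptor encoded by Scarb1, and the oxygenase encoded by Bco1 cleaves beta-carotene to retinal. The product of Rbp2 binds retinol and retinal inside the cell, and Lrat encodes the enzyme that joins retinol to a fatty acid, so that it leaves in chylomicrons as retinyl ester. Rdh7 encodes a retinol dehydrogenase, Retsat encodes an enzyme that saturates a double bond of retinol, and Aldh1a1 encodes an enzyme that oxidises retinal to retinoic acid. Isx encodes a homeobox factor of the intestine that is induced by retinoic acid and represses Bco1 and Scarb1. HNF4A and HNF4G are related nuclear receptors of the enterocyte.

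The 3 upstream sequences below are shown because Rbp2 had the largest Pol II difference of the 6 genes, Isx had a difference of the opposite sign, and Bco1 shares a motif match with Rbp2. They are the 250 bases before the annotated gene start in RefSeq, assembly GRCm38.p6, printed 5′ to 3′ on the strand of the gene. The Rbp2 sequence is chr9:98490287-98490536, the Bco1 sequence is chr8:117095615-117095864 and the Isx sequence is chr8:74872924-74873173, all on the plus strand. Capitals mark each match to 1 of 5 motifs on either strand.
Rbp2: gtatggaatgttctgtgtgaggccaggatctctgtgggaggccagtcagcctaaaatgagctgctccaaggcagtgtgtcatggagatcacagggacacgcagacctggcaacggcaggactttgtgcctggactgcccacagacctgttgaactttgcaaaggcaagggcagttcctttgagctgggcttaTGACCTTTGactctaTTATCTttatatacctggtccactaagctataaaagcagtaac
Bco1: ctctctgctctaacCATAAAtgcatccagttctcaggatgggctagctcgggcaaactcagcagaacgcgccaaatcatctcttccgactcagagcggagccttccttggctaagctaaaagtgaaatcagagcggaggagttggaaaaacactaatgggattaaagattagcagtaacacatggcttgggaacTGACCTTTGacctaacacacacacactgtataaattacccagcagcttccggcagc
Isx: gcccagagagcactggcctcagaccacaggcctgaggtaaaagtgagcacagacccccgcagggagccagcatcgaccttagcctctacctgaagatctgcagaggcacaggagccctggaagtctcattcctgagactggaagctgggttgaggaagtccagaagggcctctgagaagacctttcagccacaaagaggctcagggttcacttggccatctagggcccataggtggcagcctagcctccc

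Of the 5 motifs, CAAAGTCCA was listed for HNF4, and CAAAGGTCA for HNF4 and other receptors that bind direct repeats. The others were AGATAA for GATA factors, TTTATG for CDX factors and TAATTA for homeobox factors. RefSeq promoters were found for 7 of the 8 genes, in 9 entries, since Rdh7 and Aldh1a1 each had more than 1 annotated start. CAAAGGTCA lay on the opposite strand, as TGACCTTTG, from 58 to 50 bases before the Rbp2 start and from 56 to 48 bases before the Bco1 start. Those letters were in 140 of 32851 RefSeq promoters of the same length (0.426%). AGATAA, in 9.99% of promoters, was found upstream of Rbp2 and of 1 start of Aldh1a1. TTTATG, in 10.8% of promoters, was found upstream of Bco1 and of 1 start of Rdh7. CAAAGTCCA (0.384% of promoters) and TAATTA (4.84%) were found in none of the 9 entries, and the Lrat, Isx and Retsat entries held none of the 5 motifs in these 250 bases. No marked matches overlapped each other. A match of letters is a description of the sequence and was not tested against binding.

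Pol II signal is the authors' mean of size-factor-normalised counts over all libraries, and it ran from 13.1 to 6634 across the 6429 genes. The window counted, the depth of each library and the rule that kept these genes are not stated in the tables. Nothing in the labels says whether the libraries of a group came from separate mice, so p-values measure the spread between these libraries. The targeted genes did not lose Pol II in the libraries labelled DKO: the authors' deposited table gave log2 fold changes of WT over DKO-labelled villus of -0.54 ± 0.14 (SE) for Hnf4a and -1.45 ± 0.22 for Hnf4g, with DESeq2 adjusted p-values of 4.84e-04 and 7.81e-10. Directions between genotypes below follow the table's name. With both signs as named, counting noise accounted for 68.7% of how the tables' error variances differ. With the genotype table's sign reversed the share was 0%, a floor, since the fitted noise coefficient was not allowed below 0. That check bears on the sign and not on the labels of the libraries. Of 12 enterocyte markers 11 were in the tables, and all 11 were called higher in WT villus both than in WT crypt and than in DKO-labelled villus. Their summed rebuilt signal was 16329 in WT villus, 6085 in WT crypt and 4956 in DKO-labelled villus. Of 10 crypt stem cell markers 3 were in the tables, 2 of them called higher in WT crypt than in WT villus and 1 higher in DKO-labelled than in WT villus. Pcna, the 1 tabled gene of 8 proliferation markers, was called lower in WT villus than in both other groups, with log2 fold changes of -0.95 over WT crypt and -0.62 over DKO-labelled villus in the authors' deposited tables. Of 10 secretory cell markers 7 were in the tables: 2 were called higher in villus and 2 in crypt of WT mice, and 2 were called higher in DKO-labelled than in WT villus and none lower. Of the 8 mesenchyme markers none was in the tables. Of the 8 immune markers Cd74, Gzma and Gzmb were, with summed signals of 307, 227 and 210 in the same order of groups. Of these immune genes 1 was called higher in WT villus than in WT crypt and none lower. Between genotypes 1 was called higher in WT villus and none lower, with a median log2 fold change of -0.09 and a largest of 1.33. The part of enterocyte, crypt, secretory or immune cell content in the changes below was not tested, and fewer cells of a type cannot be told apart from less Pol II per cell in bulk chromatin.

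Between WT villus and WT crypt, Rbp2 alone of the 6 genes was called at a DESeq2 adjusted p under 0.05, and it was higher in villus. The level of each group was rebuilt from the mean signal and the 2 deposited fold changes, for groups of equal size, and carries no error of its own. For Rbp2 it was 1736 normalised counts in WT villus, 685 in WT crypt and 181 in DKO-labelled villus. The authors' deposited table gave Rbp2 a log2 fold change of villus over crypt of 1.34 ± 0.16 (SE), with a DESeq2 adjusted p of 9.97e-15. This is a 2.53-fold difference with a 95% interval of 2.03 to 3.16. It was the 98th largest of the 6429 changes toward villus. Across all genes 37.4% were called in this comparison, and 18.6% were called higher in villus, so 1 of 6 is below the share of all genes called.

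The other 5 genes were not called between villus and crypt. Isx came closest to the threshold, with -0.30 ± 0.13 in the authors' deposited table and a DESeq2 adjusted p of 0.0621. Its 95% interval on the log2 scale, from -0.57 to -0.04, lay on the crypt side before adjustment. Retsat followed with 0.29 ± 0.15, and DESeq2 gave it an adjusted p of 0.118 in that table of the authors. For the enzyme genes Lrat, Rdh7 and Aldh1a1 the authors' deposited table gave -0.09 ± 0.13, 0.08 ± 0.17 and 0.03 ± 0.08, with DESeq2 adjusted p-values of 0.637, 0.762 and 0.828. The interval was narrowest for Aldh1a1, whose villus level was between 0.910 and 1.14 times its crypt level. Those for Lrat, from 0.787 to 1.12 times, and for Rdh7, from 0.834 to 1.34 times, allow moderate differences in either direction. The median of the 6 log2 fold changes was 0.05, beside -0.04 for all genes.

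**Figure D1:**
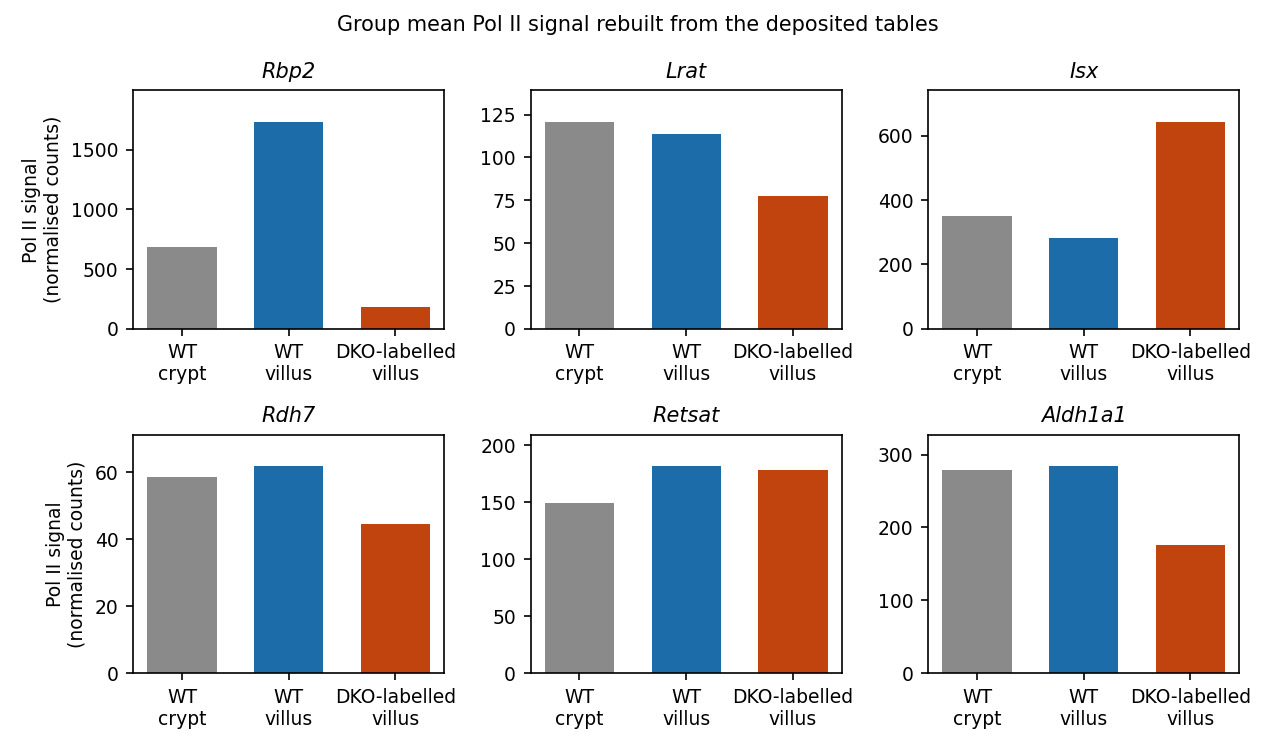
Bars show the rebuilt mean Pol II signal (normalised counts, each panel with its own axis from 0) of each gene in WT crypt, WT villus and DKO-labelled villus, with no error since the tables give none per group. Rbp2 is highest in WT villus at 1736 and lowest in DKO-labelled villus at 181, whereas Isx is highest in DKO-labelled villus at 643.

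Between WT and DKO-labelled villus 5 of the 6 genes were called, 4 with less Pol II in DKO-labelled villus and Isx with more. Across all genes 51.9% were called, 22.4% higher in WT and 29.5% higher in DKO-labelled villus. Once all changes were centred on their median of -0.08, 1710 genes were called higher in WT and 1422 higher in DKO-labelled villus, and the 5 genes kept their directions and calls. The median over the 6 genes was 0.52, beside -0.08 for all genes. The 6 genes do not move as 1 group: their changes ran from -1.19 to 3.26.

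Rbp2, the retinol and retinal carrier, fell most. In the authors' deposited table its log2 fold change of WT over DKO-labelled villus was 3.26 ± 0.17 (SE), with a DESeq2 adjusted p of 1.32e-83. This is a 9.57-fold lower signal in DKO-labelled villus, with a 95% interval of 7.64 to 12.0. Only 15 of the 6429 genes had a larger change in that direction. The rebuilt level in DKO-labelled villus was also below that of WT crypt, with a log2 difference of -1.92 ± 0.23. A normal test, made here on the difference of the 2 deposited DESeq2 fold changes, gave an adjusted p of 3.49e-14. The DKO-labelled level was 3.78-fold lower (2.76 to 5.18), and 9 genes lay further toward crypt in this comparison with crypt. The order of levels for Rbp2 was therefore WT villus, WT crypt, DKO-labelled villus, with each neighbouring pair past the threshold. Enterocyte markers moved in the same direction between genotypes, with a median log2 fold change of 2.38 and a range of 0.49 to 3.87 over the 11 genes, and Rbp2 lay within that range. For DKO-labelled villus over crypt 2 of the 11 markers were called lower and 1 higher, with a median of -0.77 and a range of -1.76 to 0.94. Rbp2 at -1.92 lay below that range, but its 95% interval of -2.37 to -1.46 reached into it.

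Lrat, which esterifies retinol, had rebuilt levels of 114 normalised counts in WT villus, 121 in WT crypt and 77.6 in DKO-labelled villus. The authors' deposited table gave WT over DKO-labelled villus as 0.55 ± 0.13, with a DESeq2 adjusted p of 1.49e-04, a 1.47-fold difference (1.22 to 1.76). Against crypt the DKO-labelled level was lower by 1.56-fold (1.21 to 2.01), with a log2 difference of -0.64 ± 0.19. The normal test on the difference of the deposited DESeq2 fold changes gave an adjusted p of 0.00764. Lrat therefore differed between genotypes with no call between villus and crypt. Tested against log2 changes as large as 0.5, it passed in neither comparison.

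Aldh1a1, which makes retinoic acid, was also lower in DKO-labelled villus than in either WT group. Its rebuilt levels were 285 in WT villus, 279 in WT crypt and 176 normalised counts in DKO-labelled villus. The change of WT over DKO-labelled villus was 0.69 ± 0.08 in the authors' deposited table, with a DESeq2 adjusted p of 3.9e-15 and a fold of 1.62 (1.44 to 1.81). Its standard error was the smallest of the 6 genes. Against crypt the DKO-labelled level was 1.59-fold lower (1.35 to 1.86). For this the normal test on the difference of the deposited DESeq2 fold changes gave an adjusted p of 1.23e-06. Against changes up to 0.5 it did not pass between genotypes, at an adjusted p of 0.191.

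Rdh7 had the lowest mean signal of the 6, 55.0 normalised counts, and the widest interval between genotypes. Rebuilt levels were 61.9 in WT villus, 58.6 in WT crypt and 44.4 in DKO-labelled villus. The authors' deposited table gave 0.48 ± 0.17 for WT over DKO-labelled villus, with a DESeq2 adjusted p of 0.0139, or 1.39-fold (1.10 to 1.77). It did not pass an adjusted p of 0.01. Its log2 difference of DKO-labelled villus from crypt, -0.40 ± 0.25, was not called (normal test on the deposited DESeq2 fold changes, adjusted p 0.324). Rdh7 lies among related dehydrogenase genes. The window counts left out read pairs with a mapping quality under 30, and whether its Pol II value did so is not stated. Its signal is uncertain to that extent.

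Retsat was not called in any comparison. Its rebuilt levels were 182, 149 and 178 normalised counts in WT villus, WT crypt and DKO-labelled villus. The authors' deposited table gave WT over DKO-labelled villus as 0.03 ± 0.15, with a DESeq2 adjusted p of 0.876. The 95% interval of that ratio, 0.836 to 1.25, bounds the difference between genotypes and does not show that there is none. The Retsat promoter window overlapped a promoter or gene body window of Elmod3 on the other strand. ChIP-seq reads do not tell apart Pol II of these genes where the windows overlap. Elmod3 was not called either, with -0.02 ± 0.08 and 0.06 ± 0.07 in the authors' deposited tables (DESeq2 adjusted p 0.850 and 0.513).

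Isx, the retinoic acid induced repressor of Bco1 and Scarb1, was the exception in direction. Its rebuilt level was 643 normalised counts in DKO-labelled villus, 283 in WT villus and 349 in WT crypt. In the authors' deposited table the log2 fold change of WT over DKO-labelled villus was -1.19 ± 0.13, with a DESeq2 adjusted p of 1.25e-17. The signal was 2.27-fold higher in DKO-labelled villus (1.90 to 2.73), and 85 of the 6429 genes lay further in that direction. DKO-labelled villus was also above WT crypt, by 1.84-fold (1.42 to 2.39), with a log2 difference of 0.88 ± 0.19. The normal test on the difference of the deposited DESeq2 fold changes gave an adjusted p of 9.60e-05. DKO-labelled villus thus had the highest level, and the villus and crypt levels of WT mice were not told apart. Against changes up to 0.5 Isx passed between genotypes and not between DKO-labelled villus and crypt.

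**Figure D2:**
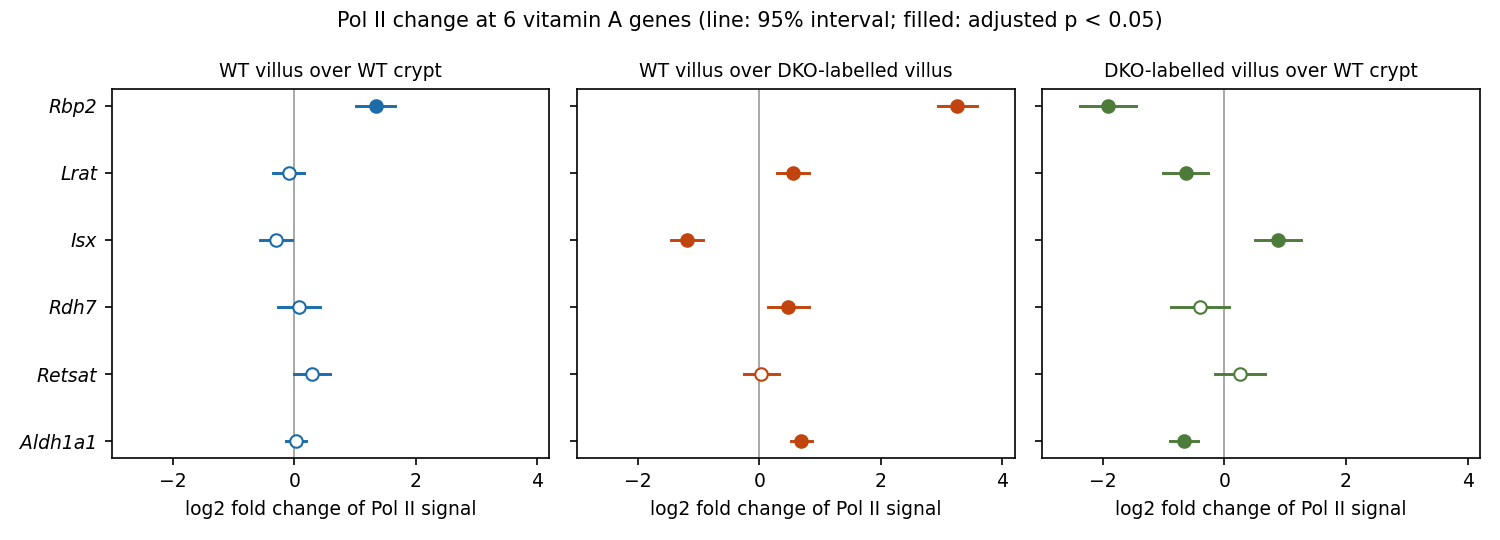
Points show the log2 fold change of Pol II signal (x axis) for each of 6 genes in 3 comparisons, lines the 95% interval, and filled points an adjusted p under 0.05. The left and middle panels hold the authors' deposited values and the right panel their difference. Rbp2 lies at 1.34, 3.26 and -1.92, and Isx alone lies below 0 in the middle panel, at -1.19.

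**Figure D3:**
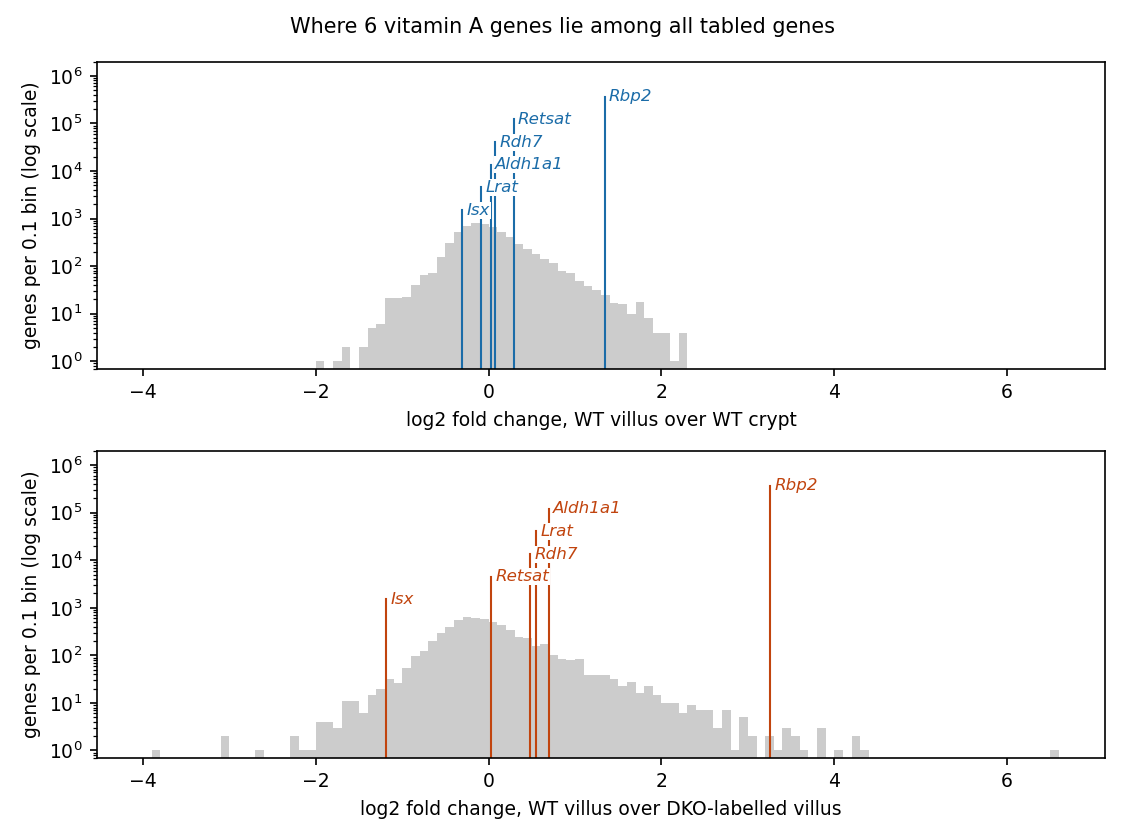
Grey bars count the 6429 genes by log2 fold change in bins of 0.1 on a log axis, and coloured lines mark the 6 genes, their heights being set only to separate the names. Both panels share the WT villus libraries. Rbp2 lies in the upper tail of both panels, Isx lies in the lower tail of the second, and the other 4 genes lie between -0.09 and 0.69.

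Of the 6 genes 4 were called between DKO-labelled villus and WT crypt, Isx higher and Rbp2, Lrat and Aldh1a1 lower in DKO-labelled villus. This comparison called 13.6% of all genes, 6.41% higher in DKO-labelled villus and 7.19% higher in crypt. It was tested with the largest standard error that the 2 tables allow, and the same 4 genes were called with a standard error rebuilt from the shared libraries, under which 30% of all genes were called, 15.6% higher in DKO-labelled villus and 14.3% higher in crypt.

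A wider list of 65 retinoid and carotenoid genes was read in the same way, and 21 of them were in the tables. None of its 9 binding and transport proteins was among these. Between WT villus and crypt the authors' deposited table had 9 of the 21 genes called higher in villus and 2 called higher in crypt, with a median log2 fold change of 0.27. Over all genes those shares were 18.6% and 18.8%, with a median of -0.04. The largest changes toward villus were at Apob, the structural protein of chylomicrons, with 1.45 ± 0.11, Mttp, which loads lipid onto it, with 0.93 ± 0.27, and Dgat1, an acyltransferase that can also esterify retinol, with 0.86 ± 0.18 (authors' deposited table). The genes called toward crypt were Tgm2, a transglutaminase gene known to respond to retinoic acid, with -0.46 ± 0.09, and Adh5 with -0.35 ± 0.13 (authors' deposited table). Mttp also stands in the enterocyte marker list.

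Between WT and DKO-labelled villus 13 of the 21 genes were called higher in WT and 2 higher in DKO-labelled villus in the authors' deposited table, with a median of 0.55. Over all genes 22.4% were called higher in WT and 29.5% higher in DKO-labelled villus, with a median of -0.08. The export genes had the largest decreases in DKO-labelled villus: the authors' deposited table gave 2.96 ± 0.11 for Apob, 2.51 ± 0.27 for Mttp and 1.41 ± 0.18 for Dgat1. The 2 genes higher in DKO-labelled villus were Rdh10 with -0.59 ± 0.19 and Dhrs3 with -0.34 ± 0.10 (authors' deposited table, DESeq2 adjusted p 0.00395 and 0.00130). Rdh10 encodes the dehydrogenase that makes retinal from retinol, and Dhrs3 a reductase that returns retinal to retinol. Of 8 tested genes for retinol and retinal interconversion, 3 were called higher in WT villus, 2 higher in DKO-labelled villus and 3 were not called, so that 5 of 8 were called beside 51.9% of all genes.

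Other genes of the wider list were chosen for mention after their values were seen. Bco2, which cleaves carotenoids off centre, had 1.00 ± 0.09 for WT over DKO-labelled villus in the authors' deposited table. Among the receptors of retinoic acid and their partners, Rxra had 0.85 ± 0.12 and Rara had 0.38 ± 0.09 in the authors' deposited table, both called higher in WT villus by DESeq2 (adjusted p 4.73e-11 and 8.42e-05), while Rxrb at 0.42 ± 0.23 was not called (adjusted p 0.124). Adh1, an alcohol dehydrogenase that can oxidise retinol, had 1.34 ± 0.23 in the authors' deposited table. Against crypt, 1 of the 21 genes, Akr1b7, was called higher in DKO-labelled villus and 10 were called lower, beside 6.41% and 7.19% of all genes, with the largest differences at Mttp (-1.58 ± 0.38), Apob (-1.50 ± 0.15) and Adh1 (-0.99 ± 0.32) on the log2 scale.

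**Figure D4:**
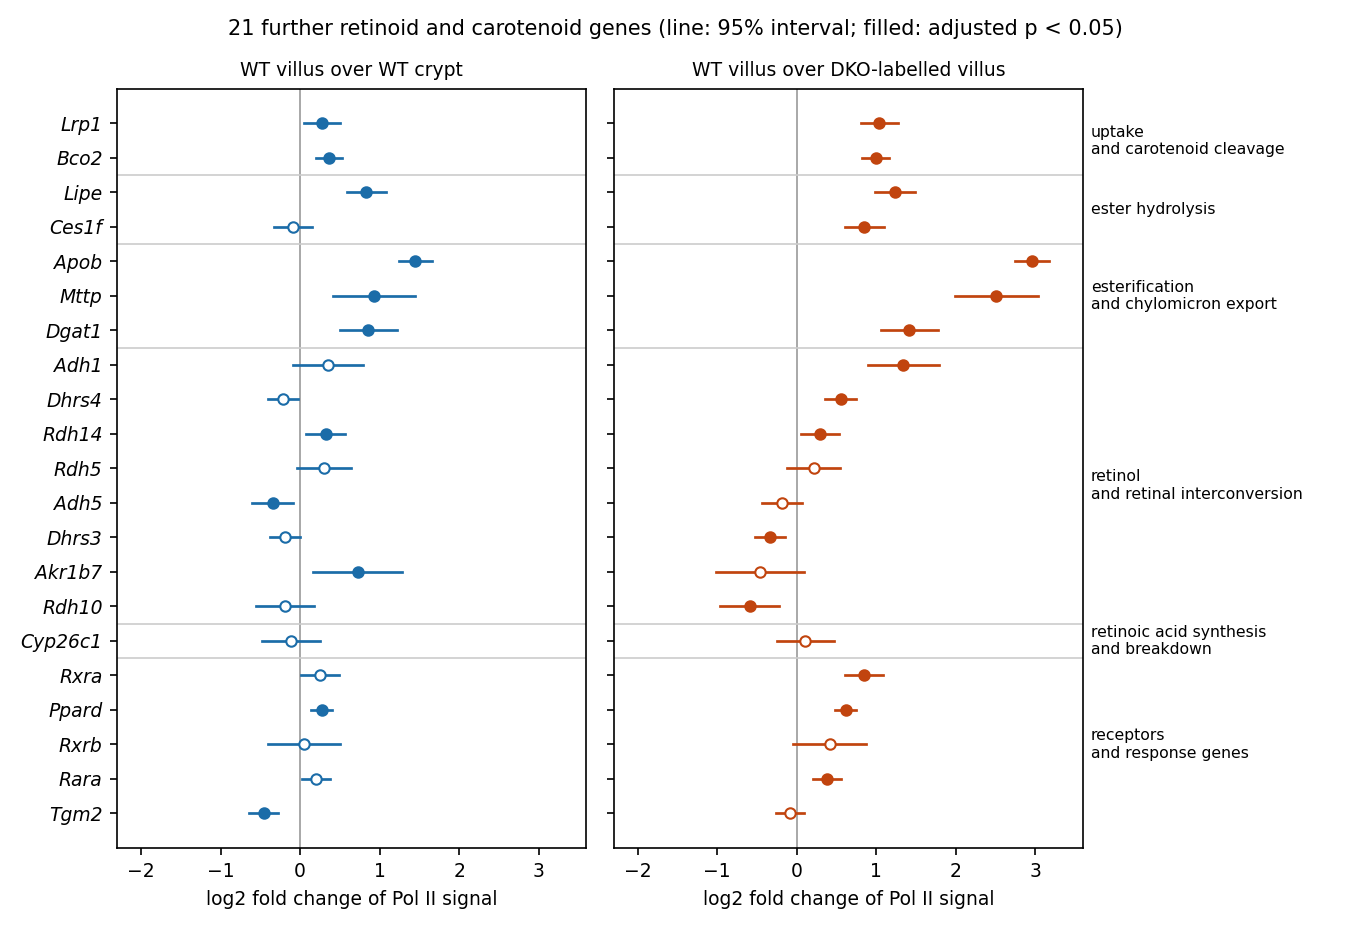
Points show the authors' log2 fold changes (x axis) for 21 further genes grouped by role, lines the 95% interval, and filled points an adjusted p under 0.05. Apob, Mttp and Dgat1 lie highest in the right panel, at 2.96, 2.51 and 1.41, and Rdh10 and Dhrs3 are the called genes below 0.

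The genes whose pattern was most like that of Rbp2 were ranked by Euclidean distance over the log2 fold changes of both deposited tables, which share the WT villus libraries. The nearest of the other 6428 genes was Gstm3, a glutathione transferase gene, at a distance of 0.05. It had 1.35 ± 0.09 for villus over crypt and 3.21 ± 0.11 for WT over DKO-labelled villus in the authors' deposited tables. Btnl5-ps, Apob, Chp2 and Gm10499 followed at distances of 0.29, 0.32, 0.34 and 0.35. Btnl5-ps belongs to a family of similar genes, and its value is uncertain to that extent.

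The counting windows of the 8 genes were read from 2 further deposited tables in mm9 coordinates, the build in the submitters' processing notes. Rbp2 had its promoter window on chromosome 9 from 98390856 to 98391257 and its gene body window from 98391306 to 98409690. The Isx promoter window lay on chromosome 8 from 77396973 to 77397374, with a gene body window of 19483 bp. Bco1 lay on the same chromosome with its promoter window from 119619665 to 119620066. Retsat had its promoter window on chromosome 6 from 72548496 to 72548897, and these genes lay on the plus strand. Aldh1a1, also on the plus strand, had promoter windows at 2 starts on chromosome 19, from 20566973 to 20567374 for 4 transcripts and from 20676358 to 20676759 for 1 transcript. The windows of the longer Aldh1a1 transcripts, with a gene body of 150031 bp, overlapped those of the noncoding genes E030003E18Rik and C730002L08Rik. For E030003E18Rik, on the same strand as Aldh1a1, the overlap included an Aldh1a1 promoter window.

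The 3 genes on the minus strand were Lrat, with its promoter window on chromosome 3 from 82707595 to 82707996, Scarb1, on chromosome 5 from 125821163 to 125821564, and Rdh7, on chromosome 10 from 127325454 to 127325855 for 1 of its 2 transcripts. Their gene body windows were placed differently from those of the plus-strand genes. For the 5 plus-strand genes the gene body window began 450 bp downstream of the upstream end of the promoter window and so left the promoter window out. For Lrat, Scarb1 and Rdh7 it began 250 bp upstream of that end and contained the whole promoter window. A gene body count for these 3 genes would therefore include promoter signal. Whether the 6 Pol II values rest on promoter or gene body windows is not stated in the tables. A window of the antisense gene Rbm46os also overlapped the Lrat promoter window. ChIP-seq reads do not show which strand is transcribed, so Pol II of Rbm46os there cannot be told apart from that of Lrat.

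**Figure D5:**
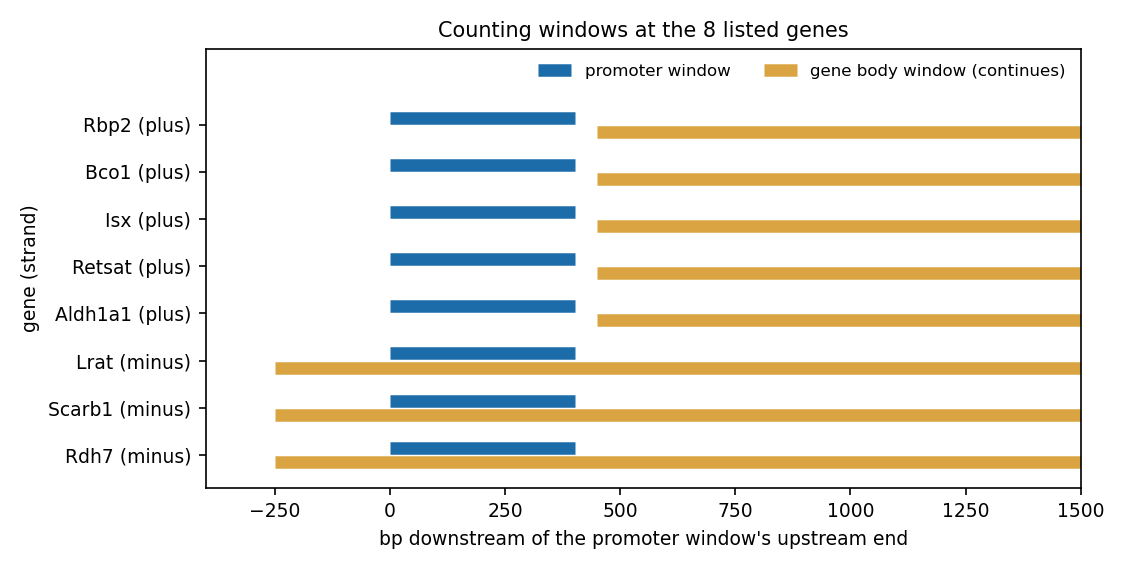
Bars show the promoter window (blue) and the start of the gene body window (yellow) of the 8 genes, in bp from the upstream end of the promoter window along the direction of transcription. The gene body window begins at 450 bp for the plus-strand genes and at -250 bp for Lrat, Scarb1 and Rdh7, where it covers the promoter window.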

How the data were processed

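Pol II ChIP-seq of 3 groups was used. The authors deposited 2 DESeq2 tables with a mean signal per gene (counts over size factors), the log2 fold change and its standard error, the Wald score and both raw and adjusted p-values, per the file headers. The submitters' processing notes name Bowtie2 2.2.6, DESeq2 1.36.0 and the build mm9. Both tables gave the same mean signal for 6429 of 6429 genes. The 2 window tables were made with featureCounts 2.0.3 on read pairs of mapping quality at least 30, per the file headers. Their 18 columns of counts carry no sample names and were not used, so the planned promoter, gene body and ratio tests were not run and depth per library is unknown. Input libraries were not used.

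A gene was called at an adjusted p under 0.05. Group means, 95% normal intervals (log2 fold change plus or minus 1.96 standard errors) and the difference of the 2 fold changes were computed. The difference was given the root of the summed squared errors and Benjamini-Hochberg adjustment over 6429 genes. Python 3.11.15 and scipy 1.17.1 were used. The means and the difference, but not the intervals, were also run on simulated data. There the means are recovered by construction, and no other outcome is given here. The sign of each table follows its name. With both signs as named, counting noise explained 68.7% of the difference between the squared standard errors. With the first sign reversed it explained 40.4%, so it separates the sign of the villus and crypt table less sharply. With the second sign reversed it gave 0%, the floor set by allowing no negative noise coefficient. Symbols matched RefSeq transcripts for 6392 of the 6429 genes. Of the wider list, 1 gene is not reported here. The members and lists were chosen with earlier results of these data known. All 8 listed genes were named where tabled, and so were the 5 genes nearest to Rbp2. From the wider list, the 3 called genes with the largest change in each direction and comparison were named. Bco2, Rxra, Rara and Rxrb were added after their values were seen. Alternatives were a stricter threshold, a minimum change, a test against changes up to 0.5, centring, a mean signal of at least 100 and a rebuilt standard error.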

Additional observations from a re-analysis of the deposited data

How the results depend on the processing

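With an absolute log2 fold change over 1 required, 2 of the 6 genes (Rbp2 and Isx) were called between WT and DKO-labelled villus in place of 5, and 1 (Rbp2) between DKO-labelled villus and crypt in place of 4. A test against changes up to 0.5 gave the same counts, 2 and 1. Both settings ask for larger changes by construction. Of 93 recomputed values for single genes, 80 held both sign and call, 13 no longer passed and none changed sign. Much of this was fixed in advance: only centring altered the fold changes, so no other setting could change a sign. Genes not called at first also could not pass the stricter threshold, the minimum change or the test against 0.5. Over all genes, the limit of 1 left 285, 559 and 223 of 2403, 3338 and 874 calls for villus against crypt, WT against DKO-labelled villus and DKO-labelled villus against crypt. The test against 0.5 left 252, 637 and 90. For the third comparison an adjusted p under 0.01 left 558, and the rebuilt standard error gave 1926. No paired analysis was possible because no values of single libraries were used. Leaving out a replicate, other size factors and other filters were not run for the same reason. Low signal limits Rdh7 most, and with a mean signal of at least 100 it was not tested.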

Other observations

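For 3 of the 6 genes other tabled genes had windows within 150 kb, and the differences from the 6 genes were not tested. The noncoding gene 4930579K19Rik, 52.7 kb from the Rbp2 windows, had 0.72 ± 0.19 both for WT villus over crypt and for WT over DKO-labelled villus in the authors' deposited tables, beside 1.34 and 3.26 for Rbp2. Tgoln1, 0.933 kb past the Retsat windows, was not called in either of the authors' deposited tables, at 0.15 ± 0.12 and -0.10 ± 0.11, beside 0.29 and 0.03 for Retsat, which was not called either. Hsd17b6, a dehydrogenase gene 101 kb from Rdh7, had 0.45 ± 0.18 and 1.09 ± 0.18 in the authors' deposited tables, beside 0.08 and 0.48 for Rdh7. Gpr182, 131 kb from Rdh7, had 0.33 ± 0.20 and 0.45 ± 0.20 in the authors' deposited tables, close to Rdh7 between genotypes. These genes were chosen by position after the values were seen.

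The placement of gene body windows seen at Lrat, Scarb1 and Rdh7 held across the deposited window tables. Of 21190 minus-strand transcripts with both windows, 21190 gene body windows contained the promoter window, and each reached 250 bp further upstream. Of 19858 plus-strand transcripts none overlapped it. A ratio of promoter to gene body counts from these windows would thus compare different parts of the gene on the plus and minus strands.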
